A study of Mus musculus with 9 samples.

Results

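The genes described here encode the proteins of the cytosolic ribosome, together with the paralogs and retrocopies that carry the same kind of name. A gene was taken when its symbol was Rpl or Rps with a number and an optional suffix, Rplp0 to Rplp2 or Rpsa, when it was neither named as a pseudogene (-ps) nor a ribosomal S6 kinase, and when its TPM (a read count scaled for the length of the gene and the depth of the library) reached 1 in any of the 9 libraries. Of the 50600 genes in the count table, 92 had such a symbol and 88 passed the TPM limit, 51 named Rpl and 37 named Rps. These 88 were all among the 16208 genes tested. The 4 that did not pass were Rpl10l and Rpl39l, with 0 counts in every library, Rpl3l, with at most 1 count, and Rps12l1, whose highest TPM was 0.70. The lowest gene that passed was Rpl24, whose highest TPM was 2.16. Of the 88, 83 are annotated as protein coding, 3 as processed pseudogenes (Rpl6l, Rps3a2 and Rps3a3) and 2 as transcribed processed pseudogenes (Rpl37rt and Rps4l). Rps19bp1 matches the name rule but encodes a binding partner of RPS19 and not a ribosomal protein.

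The study asked what tumour cells release that changes the behaviour of neighbouring normal epithelium. RNA was sequenced from 3 groups of 3 libraries each. In 2 of the groups, organoids (cultures of normal small intestinal epithelium, WT genotype, strain C57BL/6, from mice 2 to 5 months old) were kept for 24 hr in medium of which 50% had been conditioned by other cultures. The organoid titles and treatment fields name opposite media, so that the titles were followed here (T-cM-titled or WT-cM-titled), and each direction between them turns round if the treatment field is right. Tumoroids were grown without treatment from intestinal tumours of Apc1638N/+ mice more than 6 months old, which carry 1 mutated copy of the Wnt pathway inhibitor Apc. Their strain is labelled MIX, whereas the methods describe a mixed background for the mice of the whole study, at odds with the C57BL/6 label of the organoids. Their medium lacked R-spondin according to the study's methods. According to the paper, the tumour conditioned medium given to organoids came from the tumoroids that were sequenced. Labelled strain, age, medium and tumour origin therefore differ together between tumoroids and organoids and cannot be told apart. The methods state for experiments in general that 3 or more organoid lines from 3 mice were used, and they fit a sample effect among organoids, which was taken here as the replicate number.

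The eukaryotic ribosome has a small subunit, which binds mRNA and reads the codons, and a large subunit, which joins amino acids. Each subunit is built on ribosomal RNA, and its proteins are made in balance, from housekeeping genes with short, abundant mRNAs. Many of these mRNAs start with a terminal oligopyrimidine (TOP) tract, a C followed by further C or T, through which mTOR signalling and the protein LARP1 set their translation, and the proliferating intestinal crypt is known for high ribosome production.

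The starts of some genes are shown because the TOP tract is the feature that the gene class is best known for. Each window holds 30 bases around a RefSeq start (GRCm38.p6), with 10 bases before the annotated first base. Capitals mark the unbroken run of C and T that begins with the C, within 3 bases of the start, that has most pyrimidines after it. The first 6 genes have a TOP-type start, taken as a C at the annotated first base and at least 4 further pyrimidines, and the last 4 do not.
Rps6: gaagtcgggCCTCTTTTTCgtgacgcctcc
Rps10: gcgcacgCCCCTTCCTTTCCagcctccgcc
Rpl15: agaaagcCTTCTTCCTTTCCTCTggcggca
Rpl38: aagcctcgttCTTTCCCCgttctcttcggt
Rplp2: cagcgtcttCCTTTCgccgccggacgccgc
Rps27: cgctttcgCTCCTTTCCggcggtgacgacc
Rpsa: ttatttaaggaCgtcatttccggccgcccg
Rpl36al: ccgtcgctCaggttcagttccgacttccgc
Rpl7l1: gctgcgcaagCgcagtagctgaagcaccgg
Rps19bp1: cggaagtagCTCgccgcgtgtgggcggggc
The windows lie at chr4:86857348-86857377 (Rps6, minus strand), chr17:27635225-27635254 (Rps10, minus), chr14:18270967-18270996 (Rpl15, minus), chr11:114668570-114668599 (Rpl38, plus), chr7:141447641-141447670 (Rplp2, plus), chr3:90213629-90213658 (Rps27, minus), chr9:120127756-120127785 (Rpsa, plus), chr12:69184048-69184077 (Rpl36al, minus), chr17:46782637-46782666 (Rpl7l1, minus) and chr15:80264287-80264316 (Rps19bp1, minus). A RefSeq start was in the table for 64 of the 88 genes. Of these 64, 14 (21.9%) had a TOP-type start, against 324 of 10615 tested genes with a start (3.05%), 0 of 68 mitochondrial ribosomal protein genes and 2 of 27 translation factor genes. With the C allowed within 3 bases of the start, the share was 40.6% against 15.1% of tested genes. The annotated starts were not checked against the reads, so a gene without a TOP-type start here may still make a TOP mRNA. Among motifs searched on both strands in the 250 bases before and 50 bases after each start, CCGGAAG was held by 39.1% of the ribosomal protein genes and 19.2% of tested genes. The E-box CACGTG was held by 9.38% and 11.5%, GGGCGG by 62.5% and 66.3%, TATAAA by 10.9% and 9.63%, and AAGATGGC by 9.38% and 5.05%. Mitochondrial ribosomal protein genes and translation factors held CCGGAAG at 36.8% and 29.6% and AAGATGGC at 17.6% and 18.5%. A match is a string of letters and no measured binding.

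A second set of sequences shows how far paralogs can be told from their main copies by a read. Each pair gives 30 bases from the middle of the main copy's coding sequence and the aligned bases of the other gene (GENCODE vM21 transcripts), with the bases that differ in capitals.
Rps4x: acAaaAggAatcccgcacctGgtGacCcaT
Rps4l: acCaaGggCatcccgcacctCgtCacGcaC
Rpl36a: ccTatTttCcgCaaAaaggcTaaaacTaca
Rpl36al: ccAatCttTcgAaaGaaggcCaaaacCaca
Rps27: atCacCacGgtCttTagccatgcacaAacG
Rps27l: atTacTacAgtTttCagccatgcacaGacT
Over the aligned coding bases the identity was 80.1% for Rps4l with Rps4x, 87.9% for Rpl36al with Rpl36a, 75.3% for Rps27l with Rps27, 74.6% for Rpl22l1 with Rpl22 and 63.8% for Rpl7l1 with Rpl7. By contrast, Rps27rt was identical to Rps27 over all 255 coding bases, and the identity was 99.7% for Rpl37rt with Rpl37, 99.5% for Rps3a2 with Rps3a1, 98.9% for Rps3a3 with Rps3a1 and 98.7% for Rpl6l with Rpl6. Of the 88 genes, 16 had under 10% of their 100-base transcript windows in transcripts of other genes and 27 had 50% or more, so that counts of the latter depend on how reads with several matches were assigned.

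Together the 88 genes took 4.87%, 3.77% and 4.58% of the counts in the T-cM-titled libraries 1 to 3, and 5.26%, 4.18% and 5.00% in the WT-cM-titled libraries. They took 11.5%, 6.96% and 6.95% in tumoroids. All 3 tumoroid libraries lay above all 6 organoid libraries, and tumoroid 1 stood well above the other two. On the TPM scale the shares were 7.83% ± 0.947 in the T-cM-titled libraries, 8.38% ± 1.00 in the WT-cM-titled libraries and 16.1% ± 3.92 in tumoroids (SD, n = 3 each). The large and small subunits moved in step, since the summed TPM of Rpl genes was between 1.25 and 1.29 times that of Rps genes in all 9 libraries.

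**Figure D1:**
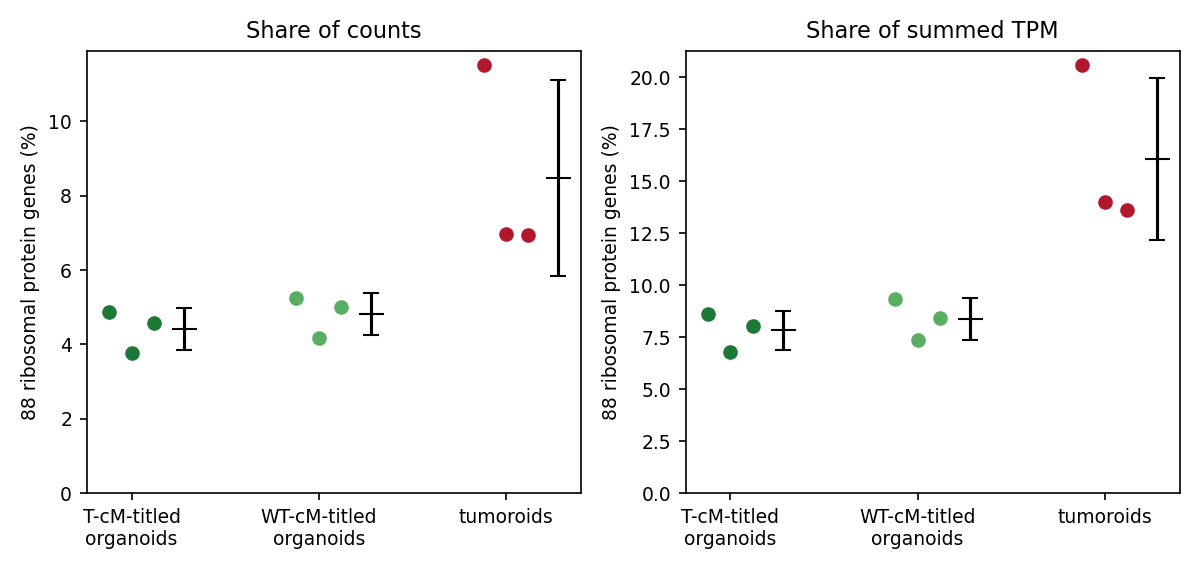
Share of all counts (left) and of summed TPM (right) on the 88 genes, in percent, with 1 point per library and the mean ± SD of each group (n = 3) in black. The tumoroid points lie at 6.95% to 11.5% of counts, above the highest organoid library at 5.26%.

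Total counts ran from 16541635 to 25170966 per library. In tumoroids, TMM factors (edgeR's correction of library sizes) were 1.19 to 1.21, against 0.890 to 0.962 in organoids, and they move every tumoroid difference downward on the log2 scale, so that rises are smaller and falls larger than with library totals alone. The makeup of the cultures differed as well. All 5 enterocyte markers fell in tumoroids, their summed TPM lying between 23282 and 55190 in organoids and between 34.3 and 379 in tumoroids. All 3 goblet markers fell, as did 3 of 4 Paneth markers, while the fourth, Mmp7, rose by 1.98 (adjusted p = 0.0022, edgeR). Of 3 tuft cell markers Avil rose, while the other 2 were below 0 and not called, and the median log2 fold change was -0.58. Their sum was 13.7 to 16.1 TPM in organoids and 41.3 to 65.6 TPM in tumoroids. Of 3 enteroendocrine markers Chga fell. Of the stem cell markers 3 of 4 rose, and the other was below 0 and not called. Their sums overlapped, at 42.3 to 344 TPM in organoids and 196 to 448 TPM in tumoroids. Of the cycling markers 0 of 4 passed the test in either direction, also at an unadjusted p under 0.05 (edgeR). Summed epithelial markers were at 7427 to 10742 TPM in organoids and 9469 to 11488 TPM in tumoroids, although of the 5 genes Krt18 rose by 1.38, Krt8 and Vil1 fell by 0.75 and 2.15, and the median log2 fold change was -0.34. The 6 fibroblast markers summed to at most 0.33 TPM in any library, and the immune markers to 1.16 to 2.57 TPM in organoids and 12.1 to 58.6 TPM in tumoroids, where Cd68 rose and 3 of the 6 had 0 counts. The 3 endothelial markers summed to at most 1.68 TPM in any library, with Cdh5 higher in tumoroids. The part of these markers in the ribosomal protein values was not tested. In these bulk libraries fewer cells of a type and less RNA per cell cannot be told apart.

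Levels differed far more between genes than between groups. Per length, the highest was Rplp1, a protein of the large subunit's stalk that helps elongation factors bind, at 5148 ± 674 TPM in organoids (SD, n = 6) and 10098 ± 2841 TPM in tumoroids (n = 3). It was followed by Rpl8 at 3111 ± 369 and 5653 ± 1164 TPM, Rps15 at 2528 ± 374 and 5712 ± 1552 TPM, Rps24 at 2589 ± 313 and 5155 ± 1369 TPM, and the stalk's base protein gene Rplp0 at 2662 ± 351 and 4897 ± 820.0 TPM. The organoid means of Rps15, Rps24 and Rplp0 lie within their spread of each other. The 5 lowest by mean TPM were Rpl24, Rps3a3, Rpl6l, Rps3a2 and Rps27rt, at means of 0.649 to 14.5 TPM, and all but Rpl24 are retrocopies or a near-identical copy. Across the 88 genes the order of mean TPM was alike in organoids and tumoroids, with a Spearman's rho of 0.98 across genes, which are not independent replicates and share the libraries. The median of the 88 means was 727 TPM in organoids and 1428 TPM in tumoroids.

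Rpl24 and Rpl13a were far below the other genes that make up every ribosome. Rpl24, a protein of the interface between the subunits, had 5, 1 and 4 counts in the T-cM-titled libraries, 5, 1 and 5 in the WT-cM-titled libraries and 7, 16 and 0 in tumoroids. Rpl13a, known also for translational control by its free form, had 13.9 to 22.9 TPM in organoids and up to 38.5 TPM in tumoroids. In the annotation, 47.0% of the exonic bases of Rpl24 and 35.4% of those of Rpl13a also belong to another gene on the same strand (Gm28037 and Gm45713), and both of these genes had 0 counts in all 9 libraries. The values of Rpl24 and Rpl13a are therefore uncertain, and the part of the overlap was not tested.

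In tumoroids against the mean of both organoid groups, 37 of the 88 genes rose and 2 fell at an adjusted p under 0.05 (edgeR's quasi-likelihood test, Benjamini-Hochberg over all tested genes). The background in the same comparison was 29.6% of tested genes higher and 20.8% lower, against 42.0% and 2.27% of the ribosomal protein genes. The median log2 fold change was 0.51 over the 88 genes and 0.16 over all tested genes, and 81 of the 88 values were above 0. This fit takes the 6 organoid libraries as independent, although same-numbered ones deviate together. With the counts of same-numbered organoid libraries summed, which leaves 3 sums against 3 tumoroids and was added after seeing the data, only Rpl7 rose (0.77, adjusted p = 0.034, edgeR) and only Rps4l fell, or 2.27% of the 88 genes against 38.8% of all tested genes. The medians then were 0.48 and 0.13. The calls of single genes in tumoroids given here rest on the larger number of libraries, and those of Rpl12 (0.84, adjusted p = 0.054) and Rps19 (0.76, adjusted p = 0.057) were among those lost (edgeR). The count of 37 also fell to 12 without T-cM-titled 2 (background 25.6%), 13 without WT-cM-titled 2 (background 25.6%) and 23 without WT-cM-titled 1 (background 28.5%). No gene rose by a log2 fold change above 1 (background 21%), and 1 fell by more (Rps4l, background 12.1%). All 3 tumoroids lay above all 6 organoid libraries for 40 of the 88 genes (background 25.6%) and below them for 1 (background 20.2%).

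**Figure D2:**
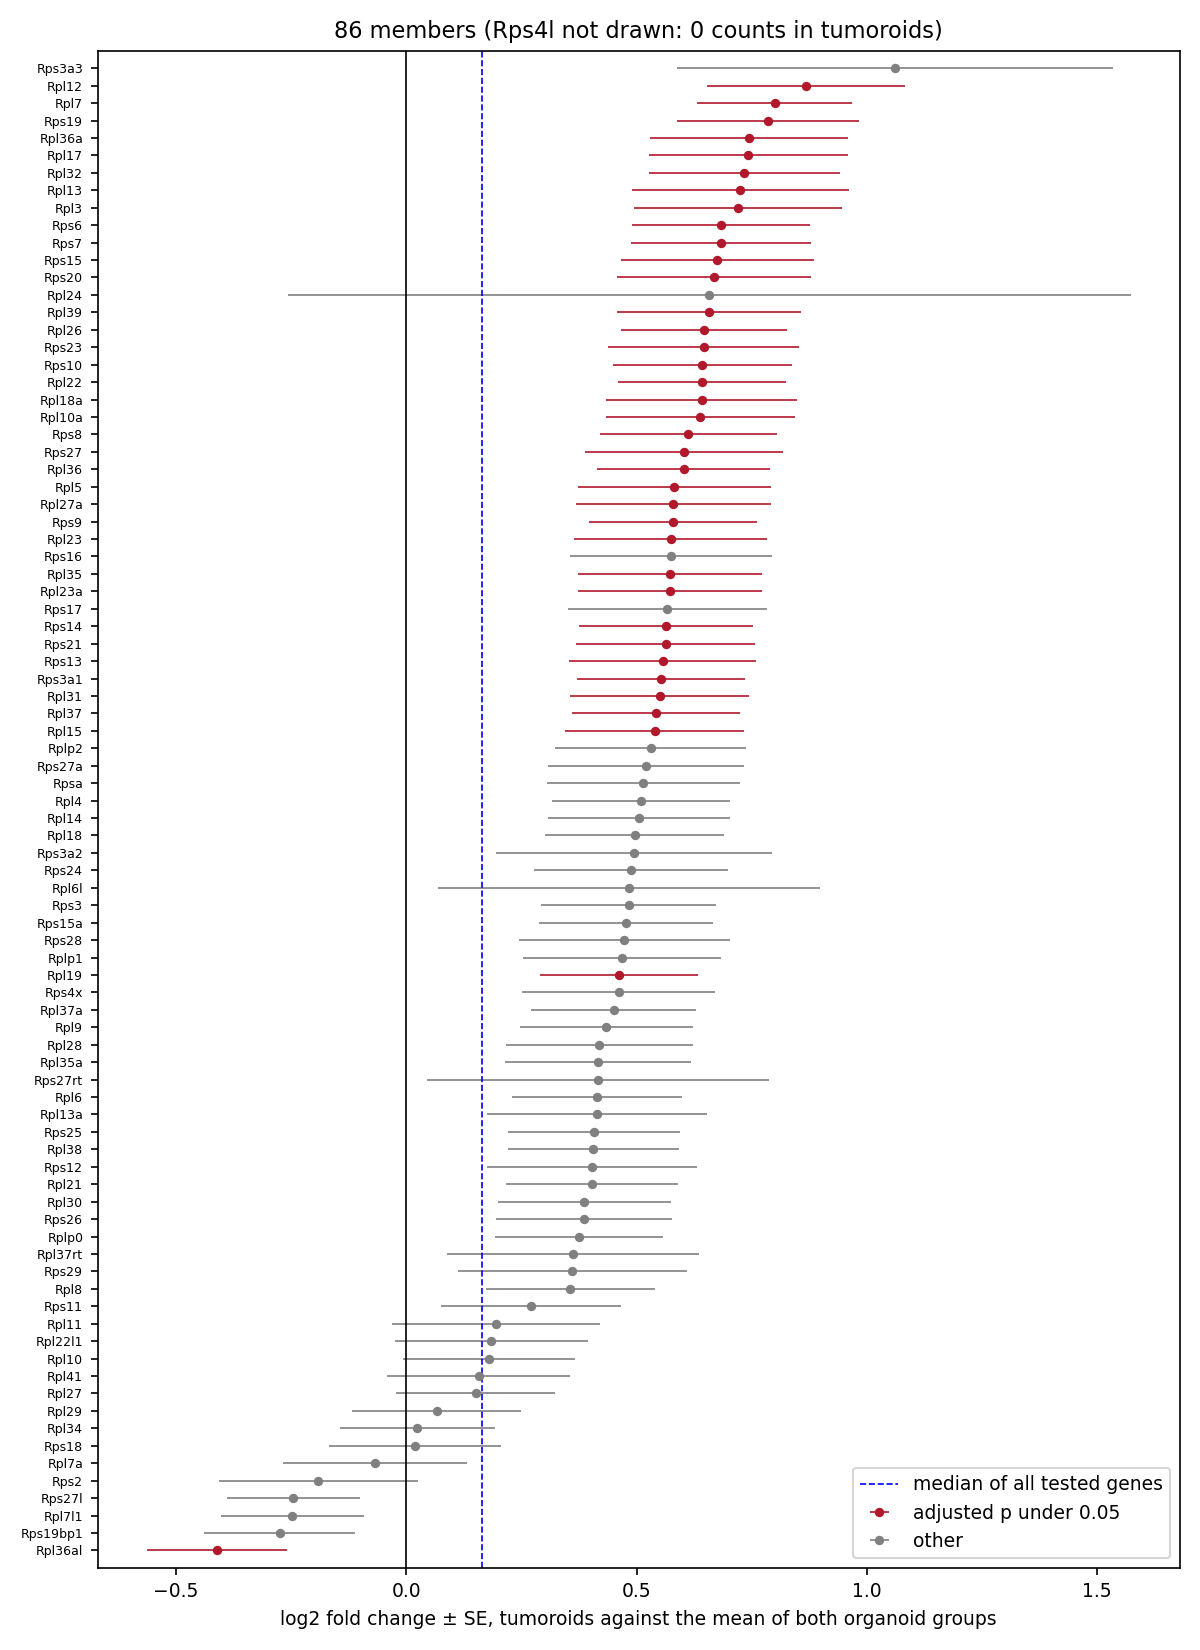
Log2 fold change ± SE of 86 genes (rows) in tumoroids against the mean of both organoid groups, red where the adjusted p was under 0.05, with the median of all tested genes as a dashed line. The quartiles of the 88 genes lie at 0.40 and 0.62, Rpl12 at 0.87 is the highest called, and Rpl36al at -0.41 is the lowest drawn.

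The rise was far larger in tumoroid 1 than in the other tumoroids. The median log2 difference of the 88 genes from the organoid mean was 0.96 in tumoroid 1, 0.21 in tumoroid 2 and 0.22 in tumoroid 3, while the median of all tested genes lay between 0.06 and 0.08 in these libraries. Of the 87 genes with a count in tumoroids, 85 were highest in tumoroid 1. Without tumoroid 1, 5 genes rose (background 27.8%) and 3 fell (background 19.5%), and the median was 0.22 over the 88 genes and 0.13 over all tested genes. Those that rose without it included Rpl7, Rps19, Rpl12 and Rpl26, and those that fell were Rps4l, Rpl36al and Rps27l. Tumoroids 2 and 3 alone lay above all organoid libraries for 40 genes (background 30.4%). Tumoroid 1 had 0.701% of its counts on mitochondrially encoded genes, against 2.17% and 0.817% in tumoroids 2 and 3, and 0.113% on rows named as ribosomal protein pseudogenes, against 0.0591% and 0.0282%. The part of these in the difference was not tested.

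**Figure D3:**
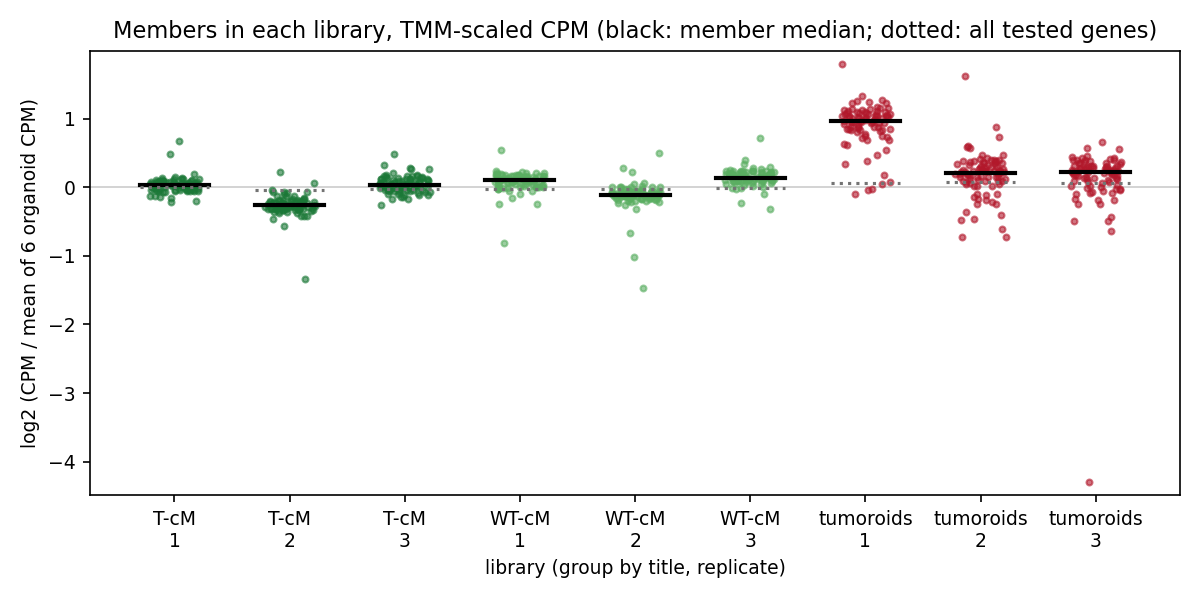
Log2 ratio of the TMM-scaled CPM of each gene to its mean over 6 organoid libraries, by library, with 1 point per gene, the median of the 88 genes in black and the median of all tested genes dotted. Tumoroid 1 stands at a median of 0.96, tumoroids 2 and 3 at 0.21 and 0.22, and Rps4l is not drawn. The lowest point is Rpl24 in tumoroid 3, with 0 counts.

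Of the 36 small subunit genes, 15 rose (41.7%, background 29.6%) and 1 (Rps4l) fell (2.78%, background 20.8%), with a median log2 fold change of 0.54. Rps6, whose protein is the target of the S6 kinases, had 512, 410.2 and 516 CPM (counts scaled for library size with TMM factors) in the T-cM-titled libraries, 537, 454 and 526 CPM in the WT-cM-titled libraries and 1080.3, 647 and 644 CPM in tumoroids. The tumoroids were above all organoid libraries, tumoroid 1 by far, while the organoid groups overlapped. The log2 fold change was 0.68 ± 0.19 (SE), with an adjusted p of 0.014 (edgeR), a call lost without tumoroid 1, at 0.39 (adjusted p = 0.054, edgeR). Rps19, which acts in the maturation of the small subunit, had 658, 529 and 641 CPM, then 712, 556 and 724 CPM, and 1485, 945 and 858 CPM in tumoroids. It rose by 0.79 ± 0.20 (adjusted p = 0.0083, edgeR) and all tumoroids were above all organoids. Rps14 rose by 0.56 ± 0.19 (adjusted p = 0.031, edgeR), likewise not without tumoroid 1, at 0.29 (adjusted p = 0.13, edgeR). Rpsa, also known as a laminin receptor, had a value of 0.51 ± 0.21 (adjusted p = 0.065, edgeR), with tumoroid 2 at 1481 CPM inside the organoid range of 1169 to 1664 CPM. Rps27a, whose protein is made as a fusion with ubiquitin, was at 0.52 ± 0.21 (adjusted p = 0.065, edgeR).

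Of the 51 large subunit genes, 22 rose (43.1%, background 29.6%) and 1 (Rpl36al) fell (1.96%, background 20.8%), with a median of 0.50. Rpl12, a protein of the stalk's base, had 779, 589 and 742 CPM in the T-cM-titled libraries, 853, 654 and 827 CPM in the WT-cM-titled libraries and 1863, 1227 and 960.3 CPM in tumoroids. No tumoroid overlapped an organoid library, and the log2 fold change of 0.87 ± 0.22 (adjusted p = 0.0077, edgeR) was the largest among the genes called. Rpl7 had 1131 to 1522 CPM in organoids and 2841, 2027 and 2122 CPM in tumoroids. The tumoroids were above all organoids and closer to each other than for most genes, and the gene rose by 0.80 ± 0.17 (adjusted p = 0.0031, edgeR). Rpl36a rose by 0.74 ± 0.22 (adjusted p = 0.016, edgeR) and Rpl17 by 0.74 ± 0.22 (adjusted p = 0.017, edgeR), and without tumoroid 1 these were 0.38 and 0.39 (adjusted p = 0.074 and 0.069, edgeR). The smallest rises that were called were those of Rpl19 at 0.46, Rpl15 at 0.54, Rpl37 at 0.54 and Rpl31 at 0.55, with adjusted p values of 0.031 to 0.047 (edgeR). All 4 calls were lost without tumoroid 1, at 0.22 to 0.28 (adjusted p = 0.14 to 0.22, edgeR). Rpl5 and Rpl11, which with 5S RNA hold back the p53 inhibitor Mdm2 when ribosome assembly fails, differed in their call. Rpl5 rose by 0.58 ± 0.21 (adjusted p = 0.042, edgeR), or 0.26 without tumoroid 1 (adjusted p = 0.22, edgeR), while Rpl11 was at 0.19 ± 0.23 (adjusted p = 0.51, edgeR), and the difference between them was not tested. The stalk genes Rplp0, Rplp1 and Rplp2 had values of 0.37, 0.47 and 0.53, none of which passed the test (adjusted p = 0.12, 0.096 and 0.057, edgeR).

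Some core genes had values near 0 where most others were near 0.5. Rps2, a protein of the mRNA entry channel, had 1132 to 1607 CPM in organoids and 1512, 870.0 and 1379 CPM in tumoroids, a log2 difference of -0.19 ± 0.22 (adjusted p = 0.49, edgeR). Rpl7a had a difference of -0.07 ± 0.20 and Rps18 of 0.02 ± 0.19, with adjusted p values of 0.80 and 0.95 (edgeR). With library totals alone all 3 values were above 0, at 0.20, 0.33 and 0.41. For all 3, the range of tumoroids covered part or all of that of organoids. Between 57.3% and 73.5% of the 100-base windows of these genes were also in other genes' transcripts. Other core genes near 0 included Rpl34 at 0.02, Rpl29 at 0.07 and Rpl41 at 0.16 (adjusted p = 0.93, 0.79 and 0.54, edgeR). Their shares of such windows were 22.5%, 50.9% and 17.4%. The part of shared windows in any of these values was not tested.

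Against each organoid group on its own, the calls were fewer. The 2 comparisons share the tumoroid libraries. Against WT-cM-titled organoids, 6 genes rose (6.82%, background 23.4%) and 1 fell (1.14%, background 18.5%), with a median log2 fold change of 0.46 against 0.15 over all tested genes. They included Rpl7, Rpl12, Rpl26, Rps6 and Rps19. Against T-cM-titled organoids, 27 genes rose (30.7%, background 25.3%) and 1 fell (1.14%, background 19.2%), with a median of 0.58 against 0.16. The share that rose lay above the background with all libraries and TMM factors. With all libraries and RLE factors (DESeq2's kind of scaling) it lay below, at 18 genes (20.5%, background 24%). It also lay below without any single organoid library or tumoroid 1. There were 1 gene without T-cM-titled 2 (background 18.1%), 4 without tumoroid 1 (background 24%), 8 without T-cM-titled 3 (background 19%) and 10 without T-cM-titled 1 (background 22.9%). In both comparisons Rps4l was the gene that fell.

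Most paralogs stood lower against their main copies in tumoroids than in organoids, which is given as a description without a test. Rpl36al, a second gene for a protein like RPL36A, was at 118%, 118% and 85.1% of the TPM of Rpl36a in the T-cM-titled libraries, at 103%, 106% and 80.2% in the WT-cM-titled libraries and at 38.9%, 46.8% and 54.2% in tumoroids. Tumoroids and organoids did not overlap in this ratio, which does not depend on the scaling of libraries. Rpl36al itself fell by 0.41 ± 0.15 on the log2 scale (adjusted p = 0.046, edgeR), a direction that turned to 0.091 on the log2(TPM + 1) scale (adjusted p = 0.61, limma). Rps27l, known as a p53 target, was at 41.8% to 59.1% of Rps27 in organoids and at 24.1%, 28.3% and 33.3% in tumoroids, again without overlap. Its log2 difference was -0.25 ± 0.14 (adjusted p = 0.19, edgeR), with the opposite sign on the TPM scale, and that of Rps27 was 0.60 ± 0.21 (adjusted p = 0.040, edgeR), or 0.28 without tumoroid 1 (adjusted p = 0.22, edgeR). Rpl7l1, whose protein acts in assembly of the large subunit, was at 8.17% to 12.9% of Rpl7 in organoids and at 4.78%, 5.83% and 4.71% in tumoroids, which did not overlap. Its own log2 difference was -0.25 ± 0.16 (adjusted p = 0.22, edgeR), again with the opposite sign on the TPM scale. Rpl22l1 was the exception, at 87.8% to 119% of Rpl22 in organoids and at 79.7%, 93.0% and 50.1% in tumoroids, where tumoroid 2 lay within the organoid range. Its log2 difference was 0.18 ± 0.21 (adjusted p = 0.50, edgeR), and Rpl22 rose by 0.64 ± 0.18 (adjusted p = 0.015, edgeR), or 0.40 without tumoroid 1 (adjusted p = 0.068, edgeR). Rps19bp1 was at -0.28 ± 0.16 (adjusted p = 0.19, edgeR), a sign that also turned on the TPM scale. The windows of Rps27 and Rpl36a are also found in other genes for 98.4% and 83.6%, so the denominators of both ratios depend on how such reads were assigned, whereas under 10% of those of Rpl7l1 and Rps27l are. In Rpl36al, 24.5% of the exonic bases also belong to Gm49383 on the same strand.

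**Figure D4:**
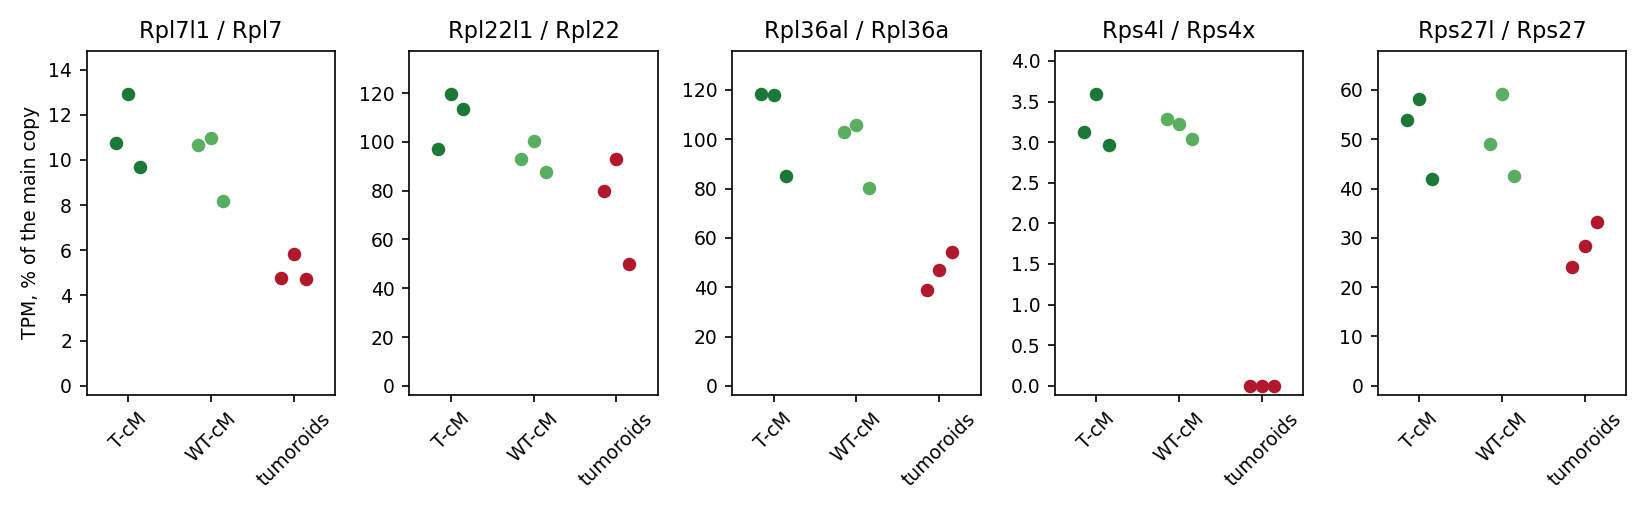
TPM of 5 paralogs in percent of the TPM of their main copy, with 1 point per library and a linear axis for each pair. Tumoroids lie below all organoid libraries for Rpl7l1, Rpl36al, Rps4l and Rps27l, and overlap with them for Rpl22l1.

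Rps4l set tumoroids and organoids apart completely. It is annotated as a transcribed processed pseudogene of the X-linked Rps4x and lies at chr6:148354656-148355598 (plus strand, mm10), within the span of Tmtc1 on the other strand. It had 424, 282 and 345 counts in the T-cM-titled libraries, 435, 335 and 472 counts in the WT-cM-titled libraries and 0 counts in each tumoroid library. The organoid libraries thus lay between 19.1 and 23.9 CPM (SD 1.83, n = 6). With a floor of 3 counts in each tumoroid library, at most 0.136 CPM, the gene was at least 155-fold lower in tumoroids (adjusted p of at most 2.86e-06 in the 3 comparisons with tumoroids, edgeR). Rps4x had 923 to 1261 CPM in organoids and 2175, 1189.6 and 1341 CPM in tumoroids, so Rps4l stood at 2.97% to 3.59% of the TPM of Rps4x in organoids. Only 1.66% of the 100-base windows of Rps4l were in other genes' transcripts. Tmtc1 had at most 2 counts in organoids and 7, 75 and 30 counts in tumoroids. By label the organoids are C57BL/6 and the tumoroids MIX, whereas the methods give a mixed background for all mice, and strain and tumour origin cannot be told apart for this gene. With Rps4l set at its bound, the median over the 88 genes remained 0.51.

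The retrocopies other than Rps4l, and Rps27rt, were low and none passed the test. Rps3a3 had 2.00 to 5.09 TPM in organoids and 15.3, 9.25 and 4.79 TPM in tumoroids, with a log2 fold change of 1.06 ± 0.47 (adjusted p = 0.089, edgeR). Rps3a2, Rpl6l, Rpl37rt and Rps27rt had values of 0.36 to 0.49. Each of them shares long stretches with its main copy, so that its counts may hold reads of the other and the reverse.

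Between the organoid groups the 88 genes moved little and mostly one way. With the replicate number as a block, Rpsa was the only gene called. It had 1478, 1169 and 1291 CPM in the T-cM-titled libraries and 1664, 1399.7 and 1572 CPM in the WT-cM-titled libraries. It was lower in the T-cM-titled library of all 3 pairs, and fell by 0.23 ± 0.07 (adjusted p = 0.030, edgeR). Thus 1 of 88 genes was lower (1.14%, background 5.05%) and 0 were higher (background 5.03%). At an unadjusted p under 0.05, 17 of the 88 were lower and 0 higher (edgeR), against 1793 lower and 1775 higher of all 16208 tested genes. By DESeq2 1 was lower (background 2.11%), and none was called by limma voom (background 1.94% higher and 1.65% lower). Next in order of p were Rpl36 at -0.22 (adjusted p = 0.057, edgeR), Rps16 at -0.22 (adjusted p = 0.058, edgeR) and Rps23 at -0.20 (adjusted p = 0.085, edgeR).

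The direction was shared to a greater extent than the calls. The log2 difference was below 0 for 78 of the 88 genes, with a median of -0.10 against 0.00 over all tested genes. In the pairs 1, 2 and 3 the median differences were -0.07, -0.15 and -0.09, with 76, 78 and 74 genes lower in the T-cM-titled library. For 63 of the 88 genes (71.6%) the T-cM-titled library was the lower in all 3 pairs, against 22.3% of tested genes, and for 1 gene the higher in all 3, against 18.9%. The genes share libraries and scaling, so these counts are a description. Without the block none of the 88 was called, with 0 at an unadjusted p under 0.05 (edgeR), and 0 of all 16208 genes were called either. Without replicate 1 there were 9, all lower (10.2%, background 9.36%). Without replicate 2 or 3 there were 0 and the call of Rpsa was lost, at -0.22 and -0.21 (adjusted p = 0.47 and 0.32, edgeR), while of all tested genes 0.00617% and 3.29% were called. Of the markers, 3 of 4 cycling genes (Top2a, Cdk1 and Mki67) and 2 of 4 stem cell genes (Ascl2 and Smoc2) fell in the same comparison, as did 2 of 4 Paneth genes (Defa17 and Mmp7) and 2 of 3 enteroendocrine genes (Chga and Chgb). Of 5 enterocyte genes Alpi rose by 0.75 and Fabp1 fell by 0.61, and the part of these in the ribosomal protein values was not tested.

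The size of the tumoroid difference depended on how libraries were scaled, while its sign did not. The median log2 fold change in tumoroids against the mean of both organoid groups was between 0.46 and 0.99 across normalisations, filters and tests, and the median of all tested genes moved with it, from 0.10 to 0.56. With RLE factors (DESeq2's kind of scaling) 26 of the 88 genes rose, a share of 29.5% that is close to the background of 28%, and 2 fell (background 22.4%). With library totals alone 74 of the 88 genes rose (background 45%) and 1 fell (background 13.2%), and on the TPM scale 80 rose (background 47.4%) and 1 fell (background 12%, limma). The gap between the 2 medians was 0.34 in the values given above, 0.35 with library totals alone and 0.47 on the TPM scale. Without tumoroid 1 the gap was 0.09, and without tumoroid 2 or 3 it was 0.49 and 0.51.

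**Figure D5:**
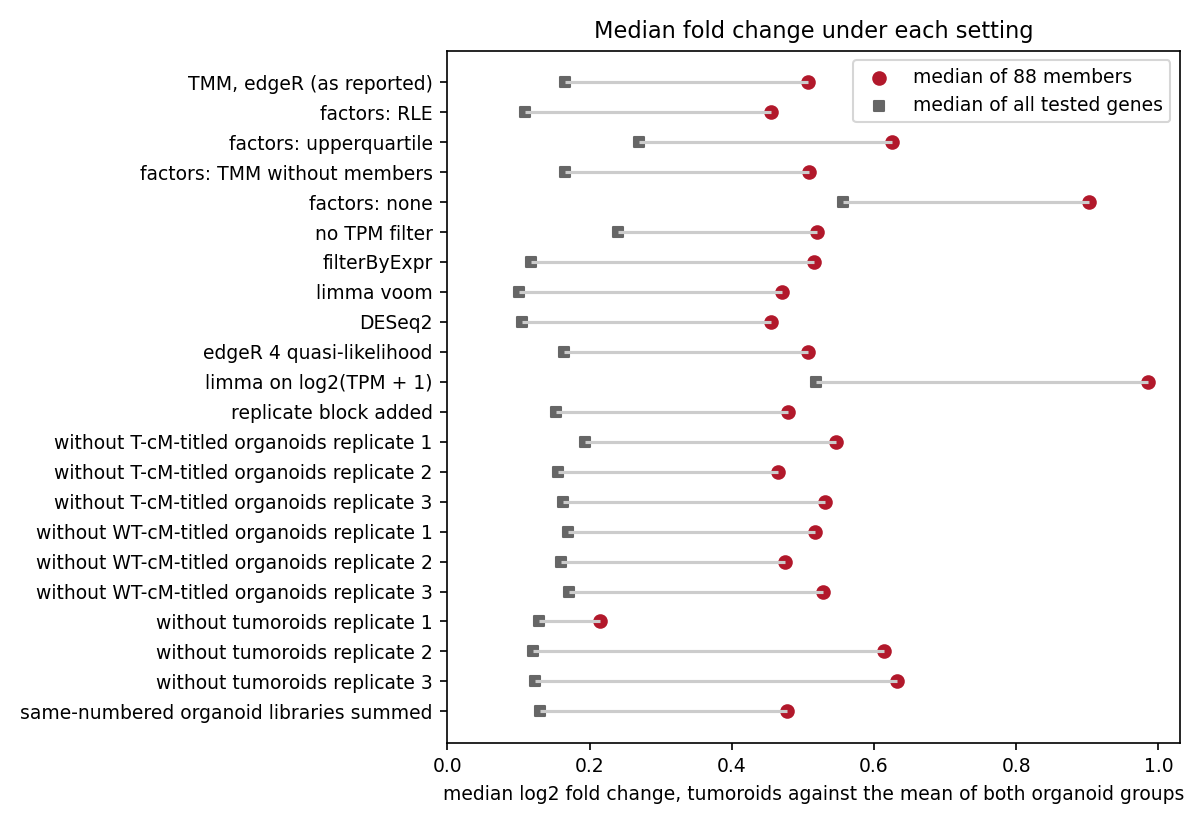
Median log2 fold change in tumoroids against the mean of both organoid groups over the 88 genes (red) and over all tested genes (grey), with 1 row per setting. The red points lie to the right of the grey in each row, by 0.09 where tumoroid 1 was left out and by 0.34 in the fit reported.

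Within the 88 genes, sets split by start or by shared sequence had medians close to each other. The median log2 fold change in tumoroids was 0.52 over the 14 genes with a TOP-type start, of which 6 rose, and 0.49 over the 50 genes with another start, of which 20 rose and 1 fell. It was 0.48 over the 16 genes with under 10% of windows in other genes, of which 6 rose and 1 fell, 0.51 over the 45 with 10% to 50%, of which 19 rose and 1 fell, and 0.52 over the 27 with 50% or more, of which 12 rose. Between the organoid groups the medians of these 5 sets lay between -0.10 and -0.06. These are descriptions, and no difference between the sets was tested.

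Genes that work with the cytosolic ribosome were looked at by lists. Of 14 genes of RNA polymerase I, which makes ribosomal RNA, 4 rose (28.6%, background 29.6%) and 1 fell in tumoroids, with a median log2 fold change of 0.52. Taf1b, a subunit of its promoter factor, rose by 2.18 ± 0.18 (adjusted p = 1.34e-05, edgeR) and the subunit gene Polr1c by 0.58 ± 0.12 (adjusted p = 0.0030, edgeR), while Polr1d fell by 0.49 ± 0.14 (adjusted p = 0.014, edgeR), a call lost with upper-quartile factors, at -0.38 (adjusted p = 0.057, edgeR), with library totals alone, at -0.09 (adjusted p = 0.60, edgeR), and on the TPM scale, at 0.02 (adjusted p = 0.92, limma). The median of the list stayed above 0 under all scalings run, at 0.47 to 1.01, and was 0.44 without tumoroid 1. With library totals alone and on the TPM scale 12 of the 14 rose (85.7%, background 45% and 47.4%). Of 45 ribosome assembly genes, 13 rose (28.9%) and 1 fell, with a median of 0.51. With library totals alone 32 rose (71.1%, background 45%), and on the TPM scale 36 did (80%, background 47.4%, limma). Rrs1, needed for the large subunit, rose by 1.22 ± 0.32 (adjusted p = 0.010, edgeR), and Bop1, of the PeBoW complex, fell by 0.66 ± 0.18 (adjusted p = 0.012, edgeR). The call of Bop1 was lost with library totals alone, at -0.27 (adjusted p = 0.27, edgeR), and on the TPM scale, at -0.13 (adjusted p = 0.57, limma). Without tumoroid 1, 3 assembly genes rose (6.67%, background 27.8%) and 2 fell (background 19.5%), with a median of 0.36. Of the 36 translation factors, 6 rose (16.7%) and 4 fell (11.1%), with a median of 0.13, which was -0.043 without tumoroid 1. With library totals alone 22 rose (61.1%, background 45%) and 1 fell (background 13.2%). On the TPM scale 28 rose (77.8%, background 47.4%) and 1 fell (background 12%, limma), so the split of 6 to 4 rests on the scaling. Eef1b2, which recharges elongation factor 1, rose by 0.78 ± 0.20 (adjusted p = 0.0094, edgeR) and Eif6, which keeps free large subunits from joining, fell by 0.83 ± 0.12 (adjusted p = 0.000297, edgeR). Between the organoid groups none of the polymerase and assembly genes was called, and 2 of the translation factors rose. At an unadjusted p under 0.05 there were 1 and 7 of the polymerase and assembly genes (edgeR), against 3568 of all 16208 tested genes.

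Mitochondrial ribosomal protein genes encode proteins of the separate ribosome inside mitochondria. The list was taken by symbol alone (Mrpl or Mrps with a number), and the place of each protein, Mrps36 included, in that ribosome was not checked. Of the 77 tested, 5 rose (6.49%, background 29.6%) and 26 fell (33.8%, background 20.8%) in tumoroids, with a median log2 fold change of -0.29. With library totals alone the median turned to 0.10, and 15 rose (19.5%, background 45%) and 7 fell (background 13.2%). On the TPM scale it turned to 0.21, and 23 rose (29.9%, background 47.4%) and 4 fell (background 12%, limma). Without tumoroid 1, 2 rose (2.6%, background 27.8%) and 39 fell (background 19.5%), with a median of -0.45. In each of these scalings the median of the list lay below that of all tested genes. Mrps36 fell by 1.28 ± 0.17 with TMM factors (adjusted p = 0.000193, edgeR) and was at -0.76 on the TPM scale (adjusted p = 0.000822, limma). Its level was 67.2 ± 4.04 TPM in organoids and 39.5 ± 6.53 TPM in tumoroids (SD, n = 6 and 3). Their summed share of counts was 0.372% ± 0.0418 in the T-cM-titled libraries, 0.401% ± 0.0408 in the WT-cM-titled libraries and 0.406% ± 0.0745 in tumoroids (SD, n = 3 each), so on the share of raw counts the groups overlapped. Between the organoid groups their median was -0.10, with 1 gene higher and 3 lower.

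Of 18 regulators of ribosome production, 5 rose (27.8%, background 29.6%) and 3 fell (16.7%, background 20.8%) in tumoroids. With library totals alone or on the TPM scale, 9 rose (50%, background 45% and 47.4%) and 1 fell. The median was -0.03, and it was above 0 in several other scalings. Myc, the transcription factor best known to drive ribosome production, rose by 2.37 ± 0.26 with TMM factors (adjusted p = 6.38e-05, edgeR). On the TPM scale it was at 2.91 (adjusted p = 3.89e-05, limma). Its level was 44.8 ± 17.5 TPM in organoids and 330.0 ± 66.6 TPM in tumoroids (SD, n = 6 and 3). Trp53 rose by 0.94 ± 0.19 (adjusted p = 0.0024, edgeR), and Eif4ebp1, a brake on cap-dependent translation, by 0.84 ± 0.19 (adjusted p = 0.0040, edgeR). The S6 kinase genes Rps6kb2 and Rps6ka1 fell by 0.78 and 0.87 (adjusted p = 0.0033 and 0.000294, edgeR), and the call of Rps6kb2 was lost with library totals alone (adjusted p = 0.085, edgeR) and on the TPM scale, at -0.26 (adjusted p = 0.16, limma). Larp1 and Mtor had values of -0.13 and 0.05, which did not pass the test (adjusted p = 0.56 and 0.84, edgeR). Between the organoid groups only Mdm2 of these 18 was called, higher by 0.28 (adjusted p = 0.046, edgeR).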

How the data were processed

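Libraries were made with a strand-specific poly(A) kit and sequenced as paired reads of 100 bases. Per the labels and the study's methods, the authors aligned reads to mm10 with STAR; the counting tool and its strand setting are not given in the sources used here. The authors deposited raw counts for each gene. They also deposited TPM, for which the authors corrected the counts for gene length and depth. The methods speak of protein-coding genes, whereas the deposited counts cover other classes too, and all were kept.

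Genes at a TPM of at least 1 in any library were tested, with edgeR 4.0.16 (TMM, quasi-likelihood F test in its earlier form, R 4.3.3) and Benjamini-Hochberg adjustment, and called at an adjusted p under 0.05. Organoid groups were compared over 6 libraries, the replicate number being a block as the study's model has it. The labels do not say what the numbers mark. They were taken as pairs since the deviations of same-numbered organoid libraries from the group means correlated at 0.546, 0.338 and 0.547. Tumoroids were compared over 9 libraries without a block. Alternatives were other factors and filters, limma 3.58.1 (voom, or log2 of TPM + 1), DESeq2 1.42.0, the newer quasi-likelihood form, the block, leaving out libraries, other denominators and other definitions of a TOP-type start. Fits were tested on simulated data. Scalings of the lists of other genes and sums of same-numbered organoid libraries were added after seeing the data. Counts of 0 were given a floor of 3 counts, which covers counting error only. Whether replicates are separate cultures of separate tumours is not stated for tumoroids, so p-values there measure the spread between these libraries.

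Starts and promoters came from RefSeq (GRCm38.p6), transcripts and gene types from GENCODE vM21, a later release than the authors' annotation, and alignments from Biopython 1.88 (Python 3.11.15). The genes and the other lists were chosen with earlier results of these data known. Named are all genes past a log2 fold change of 1, the 6 called with the largest and the 6 with the smallest change in tumoroids (likewise between organoid groups), the 5 highest and 5 lowest by TPM, paralogs and special members, and up to 4 genes of other lists by p, not all of which are printed. Some genes that the rule names, and 1 marker list, are not reported here. Rps2, Rpl7a, Rps18, Rpl26, Rpl29, Rpl34, Rpl41, Rpl13a, Eif4ebp1, Larp1, Mtor, Cd68 and the genes overlapping a member were named after their values were seen. Fold changes from the authors' own tests were not used. No library preparation batch is given in the labels.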

Additional observations from a re-analysis of the deposited data

How the results depend on the processing

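In tumoroids against the mean of both organoid groups, 39 genes were called, 75 with library totals alone, 81 on log2(TPM + 1) by limma, 1 with an absolute log2 fold change above 1 also required and 2 with same-numbered organoid libraries summed, added after seeing the data. Leaving out 1 library gave 8 (without tumoroid 1) to 54 genes, with 13, 24 and 14 without T-cM-titled 2, WT-cM-titled 1 and WT-cM-titled 2 (14.8%, 27.3% and 15.9% of members, against 44.1%, 48.8% and 44.2% of all tested genes). Against WT-cM-titled organoids, 7 became 14 with upper-quartile factors, 68 with library totals, 11 by DESeq2, 76 on TPM, 17 with the replicate block added, 1 with the fold change limit, and 1 to 21 without single libraries. Against T-cM-titled organoids, 28 became 44 with upper-quartile factors, 71 with library totals, 80 on TPM, 44 with the block, 1 with the fold change limit, and 2 to 48 without single libraries. Between the organoid groups, 1 became 3 with upper-quartile factors or no TPM filter, 4 with library totals, 0 by limma voom, on TPM, by the newer quasi-likelihood form, with no replicate block or with the fold change limit, and 0 to 9 without single pairs (9 without pair 1, 0 without 2 or 3). Of all tested genes 50.4% were called in the first comparison, 58.2% with library totals, 59.3% on TPM, 47.3% without tumoroid 1 and 38.8% with libraries summed. Against WT-cM-titled and T-cM-titled organoids 41.9% and 44.5% were called, 43% and 45.6% with upper-quartile factors, 49.5% and 51.5% with library totals, 52.7% and 52.8% on TPM, 47.9% and 50.4% with the block. By DESeq2 44.9% were called against WT-cM-titled organoids. Without single libraries the shares were 31.5% to 41.1% and 33.3% to 43.7%. With the fold change limit 2953 genes were higher and 1881 lower against WT-cM-titled organoids, and 3139 and 1918 against T-cM-titled organoids. In the organoid comparison it was 10.1%, 10.4% with upper-quartile factors, 8.37% with no TPM filter, 9.98% with library totals, 3.58% by voom, 6.47% by the newer form, 0% with no block or on TPM, and 17.7%, 0.00617% and 3.29% without pairs 1, 2 and 3. Same-numbered tumoroid and organoid libraries correlated at -0.071 to 0.196, so the numbers were not taken as pairs there. According to the paper the tumour conditioned medium came from the sequenced tumoroids. With 3 libraries per group these correlations cannot exclude such a link.

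The medians kept their sign in all settings run. On TPM they were 0.95, 1.03 and 0.99 in tumoroids against WT-cM-titled, T-cM-titled and both organoid groups. The TOP share was 40.6% with the start moved by up to 3 bases. Library totals and TPM reversed Rpl7l1 (0.15 and 0.27), Rps27l (0.15 and 0.25) and Rps19bp1 (0.12 and 0.23), TPM reversed Rpl36al (0.091), and leaving out 1 library gave -0.16 (without tumoroid 1) to 0.40 for Rpl22l1. Library totals and TPM reversed the median of mitochondrial ribosomal proteins (0.10 and 0.21) and of regulators (0.37 and 0.48, and 0.082 with upper-quartile factors), and leaving out tumoroid 1 that of translation factors (-0.043) and regulators (0.042). The cause of these shifts was not tested. Rpl24 had at most 16 counts in a library.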

Other observations

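Among ribosomal protein genes whose symbols the name rule does not catch, Rack1 and Fau were looked at on their own. Rack1, a small subunit protein that serves as a scaffold for kinases, rose in tumoroids by 0.68 ± 0.20 on the log2 scale (adjusted p = 0.018, edgeR), a call lost without tumoroid 1, at 0.38 (adjusted p = 0.067, edgeR). Fau, made as a fusion with a ubiquitin-like protein, was at -0.14 ± 0.21 (adjusted p = 0.62, edgeR), with the opposite sign on the TPM scale.

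Rows named as ribosomal protein pseudogenes were also counted. Of 278 such rows 127 were tested, and 14 rose and 0 fell in tumoroids, with a median log2 fold change of 0.69 (edgeR). The share that rose was 11%, against 29.6% of all tested genes. At an unadjusted p under 0.05, 20 were higher and 0 lower (edgeR), against 5359 higher and 3785 lower of all 16208 tested genes. On TPM limma called 48 higher (37.8%, background 47.4%) and 0 lower (background 12%). Without tumoroid 1, 8 rose (6.3%, background 27.8%) and 0 fell (background 19.5%, edgeR), and the median was 0.057, against 0.13 over all tested genes. They took 0.00814% to 0.0182% of the counts in organoids and 0.0282%, 0.0591% and 0.113% in tumoroids. Per 100 counts on the 88 genes these rows held 0.216 to 0.374 counts in organoids and 0.405, 0.848 and 0.983 counts in tumoroids, and these ranges did not overlap.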
